A study of Mus musculus with 98 samples.

Results

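Cd3g-high cells were set against Cd3g-undetected cells among regenerated innate lymphoid cells (ILCs) of mouse intestine, which resemble helper T cells in function but rearrange no antigen receptor. The cells were chosen by their Cd3g value: of 35 R9-ILCs whose titles end in 1, those at 100 TPM or more were called Cd3g-high (9 cells), those under 1 TPM Cd3g-undetected (10 cells), and the 16 cells between were left out of the comparison. TPM is a transcript abundance scaled to the same total in every cell. The series holds 67 R9-ILCs, 32 of them without a title ending, and the 35 cells make up those that remain, beside 30 WT columns used here.

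R9-ILCs are CD45.2+GFP+Lin-CD127+ cells made from pluripotent stem cells, of C57BL/6 strain by their labels, and sorted from the gut of Rag2-/-Il2rg-/- recipients 3 weeks after transplantation. Such recipients lack T, B and natural killer cells of their own, since Rag2 is needed for receptor rearrangement and Il2rg is a shared cytokine receptor chain. WT-ILCs, used here only for a side comparison, are CD45.2+Lin-CD127+ gut cells of C57BL/6 mice aged 8 weeks. Cd3g-high and Cd3g-undetected cells share tissue, time, gate and title series, and the labels state neither the animals nor what the title ending means. Each sample was 1 cell and the groups were split by a measured value, so no test was made, and SDs below are spreads over cells.

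Cd3g encodes the gamma chain of CD3. In T cells, CD3 gamma, delta and epsilon and the zeta chain (Cd247) surround the T cell receptor, and their ITAM motifs, once phosphorylated by Lck, bind the kinase Zap70, which acts on the adaptor Lat. A receptor reaches the cell surface only when the chains are made together. Transcripts of CD3 chains are also known in natural killer cells and some ILCs, which do not make the receptor.

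The groups were far apart in Cd3g, as the choice required. Cd3g lay between 636 and 6165 TPM in the 9 Cd3g-high cells, with a median of 2690, and was listed at 0 in all 10 Cd3g-undetected cells. Just inside the upper limit the lowest cell stood at 636 TPM, and just outside it the highest of the 16 cells between stood at 12.1 TPM. The lowest of those 16 stood at 1.01 TPM, against 0 in every Cd3g-undetected cell. No cell lay between 12.1 and 636 TPM. In the 32 R9-ILCs without a title ending, 6 cells reached 100 TPM, with a highest value of 201 TPM, and 23 were under 1 TPM. In the WT table, which was scaled separately, 1 column reached 100 TPM, at 117 TPM.

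**Figure D1:**
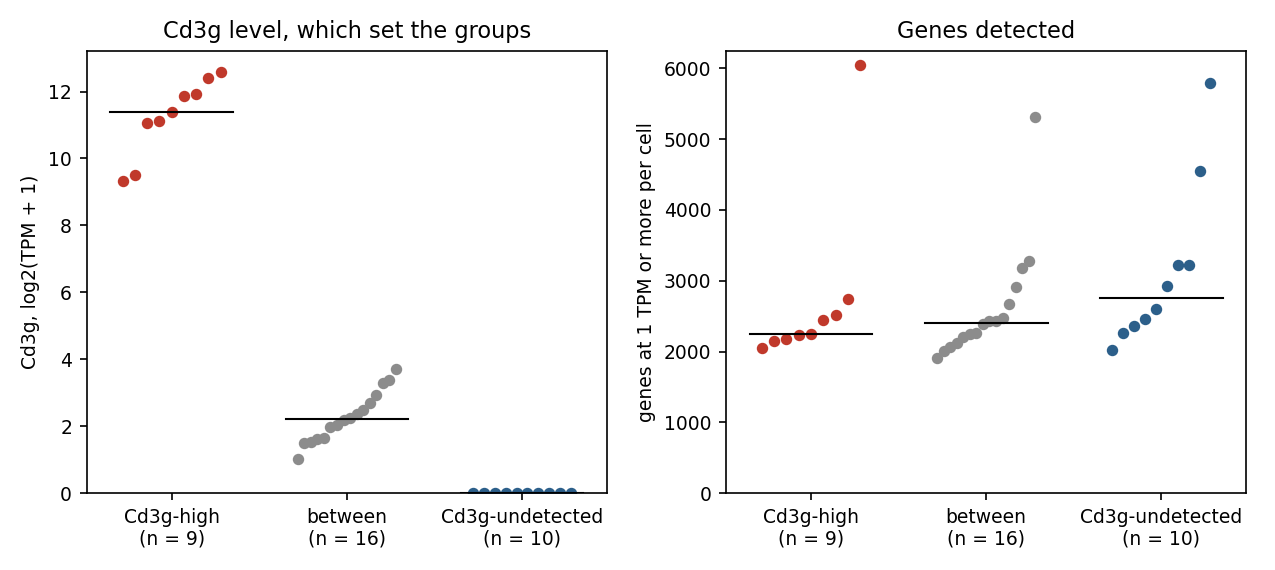
Each point is 1 of the 35 R9-ILCs of title ending 1, grouped by Cd3g level; the left axis gives Cd3g as log2(TPM + 1), the right axis how many genes reached 1 TPM, and lines are medians. Cd3g leaves a gap between 12.1 and 636 TPM, while the numbers of genes overlap between the groups.

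Cd3g-high cells had a median of 2248 genes at 1 TPM or more (2052 to 6042) and Cd3g-undetected cells 2763 (2017 to 5787), and the groups overlapped throughout most of that range. Depth is unknown, because TPM values do not carry it. The gene that took most TPM held 0.850% to 4.01% in Cd3g-high cells and 1.52% to 19.3% in Cd3g-undetected cells. Few levels were intermediate: by the median over cells, 42.01% of the detected genes of a Cd3g-high cell lay from 1 to 20 TPM and 8.72% from 20 to 100 TPM, and for a Cd3g-undetected cell these shares were 40.5% and 8.60%. For that reason the number of cells at 100 TPM is given beside detection at 1 TPM. Among cells of title ending 1, the highest correlation of any pair over the genes both detected was 0.56, and across both R9 series it was 0.57, below the 0.8 above which WT columns were taken as 1 cell.

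Cd3g is on chromosome 9 (GRCm38, 44969572 to 44980431, minus strand). Cd3d (44981786 to 44987339, plus strand) starts 1355 bases away in the opposite direction, and Cd3e (44998740 to 45009627, minus strand) lies beyond it. On the other side, Ube4a, a ubiquitin ligase gene, ends 3972 bases from Cd3g. In GENCODE M21, 0 annotated genes overlap Cd3g, so no overlapping or antisense gene of that annotation shares its reads. The 250 bases before the start of Cd3g (chr9:44980432-44980681, minus strand) and of Cd3d (chr9:44981536-44981785, plus strand) are shown because these neighbours differ in the cells below. They come from RefSeq (GRCm38.p6) and are written 5′ to 3′, with capitals marking each match on either strand to CANNTG (the E-box of E proteins, which Id2 opposes), TGTGGT (Runx) or CTTTG (Tcf7 and Lef1).
Cd3g: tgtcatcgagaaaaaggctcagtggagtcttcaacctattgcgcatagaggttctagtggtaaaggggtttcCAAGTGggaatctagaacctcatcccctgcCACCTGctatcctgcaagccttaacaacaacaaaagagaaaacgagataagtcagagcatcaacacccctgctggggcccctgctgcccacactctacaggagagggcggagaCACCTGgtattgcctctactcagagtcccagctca
Cd3d: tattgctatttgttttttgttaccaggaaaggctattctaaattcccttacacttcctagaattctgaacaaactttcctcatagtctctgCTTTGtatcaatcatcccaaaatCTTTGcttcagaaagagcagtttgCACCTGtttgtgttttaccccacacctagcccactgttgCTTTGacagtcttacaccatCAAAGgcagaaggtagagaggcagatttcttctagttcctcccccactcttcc
The Cd3g window holds 3 matches to CANNTG, 0 to TGTGGT and 0 to CTTTG, and the Cd3d window holds 1, 0 and 4. Over 32851 windows of the same length, 66.2% hold at least 1 match to CANNTG, 14.05% to TGTGGT and 48.6% to CTTTG. Holding 1 match to CANNTG or CTTTG is thus not rare, and how often a window holds 3 or 4 was not counted. A match is a description of the letters.

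Of the 18 symbols listed for the T cell receptor complex, the table held 4 besides Cd3g, namely Cd3d, Cd3e, Cd247 and Ptcra, and the constant region genes of the receptor chains are not analysed here. Cd3d, the delta chain, was at 23.2 TPM in 1 of 9 Cd3g-high cells (11.1%, exact 95% interval 0.28 to 48.3) and listed at 0 in the other Cd3g-high cells, and it was detected in 0 of 10 Cd3g-undetected cells (0 to 30.8). Cd3e, the epsilon chain, was at 16.6 TPM in another Cd3g-high cell and listed at 0 in all others of both groups. Cd247, the zeta chain, and Ptcra, the surrogate alpha chain of developing T cells, were detected in 0 of 9 and 0 of 10 cells. The cell with Cd3d had 2204 TPM of Cd3g and the cell with Cd3e 5445 TPM, and in the other 7 Cd3g-high cells Cd3g was the only detected gene of the 5. The intervals cover counting error only, and a listed 0 can be a failed estimate. In the cells between, Cd3d and Cd3e were detected in 0 of 16 cells. The neighbour Ube4a was detected in 1 cell of each group, and the next gene, Atp5l, a subunit of ATP synthase, was at 100 TPM or more in 7 of 9 and 9 of 10 cells (both picked after their values were seen).

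Other T cell markers were few in both groups. Of 20 listed markers, 14 were detected in 0 of the 19 cells, among them Cd4, Cd8a, Cd5, Cd6, Cd2, Cd28, Foxp3, Rag1 and Rag2. Bcl11b, a T lineage factor that ILC2s also use, was detected in 2 of 9 Cd3g-high cells (up to 58.8 TPM) and 0 of 10 Cd3g-undetected cells. Only 3 markers passed the filter (1 TPM in at least 5 of the 19 cells), and all 3 are also used by ILCs. Of these 3, 1 (Tcf7) was higher and 0 were lower by the size rule given below, beside 5.45% higher and 13.5% lower over all genes. Tcf7, a Wnt pathway factor of ILC precursors and T cells, reached 100 TPM in 5 of 9 Cd3g-high cells (0.782 to 2868, median 207 TPM) and in 2 of 10 Cd3g-undetected cells (0 to 828, median 2.96 TPM). The groups overlapped in range, with a difference of mean log2(TPM + 1) of 3.10. Il7r, the CD127 of the gate, lay at 10.2 ± 1.22 and 10.1 ± 1.59 on the log2 scale. The cells thus held the CD127 gene of the gate, while Cd4, Cd8a, Cd5 and Cd28 were not detected in any of the 19.

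The size rule, here and below, asks for a difference of at least 2 in mean log2(TPM + 1), high minus undetected, which is 4-fold on that scale, and for the group with more to detect the gene in 50% of its cells or more. Of 4203 genes that passed the filter, 229 (5.45%) were higher and 566 (13.5%) lower in Cd3g-high cells, and the median difference was -0.32. Detection shares were higher by at least 30 points for 150 genes (3.57%) and lower for 519 (12.3%). At 100 TPM, a share higher by at least 50 points was seen for 16 genes (0.381%) and a lower one for 21 (0.5%). These counts describe 9 and 10 cells and rest on no test.

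**Figure D2:**
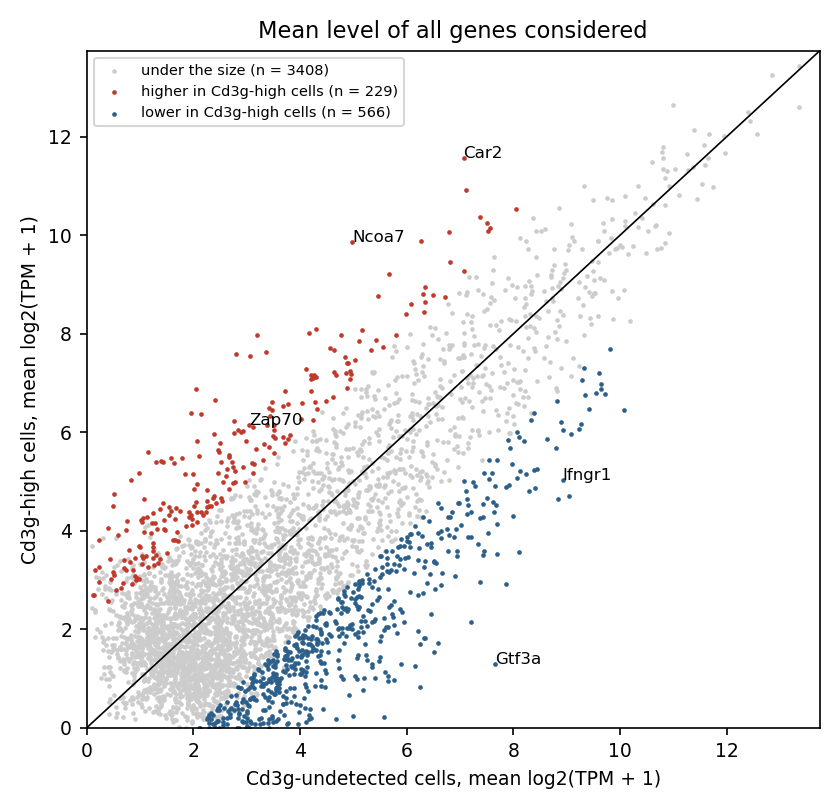
Each point is 1 of the 4203 genes considered, with its mean log2(TPM + 1) in Cd3g-high cells on the vertical axis and in Cd3g-undetected cells on the horizontal axis; the line marks equal means. The 229 genes higher and the 566 lower by the size rule lie away from the line. Car2, at 866 to 6254 TPM in Cd3g-high cells, is among the higher ones. The abundant genes Actb (0.39) and Eef1a1 (0.09) lie near the line.

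Zap70, Lat and Txk were the signalling partners that met the size rule as higher in Cd3g-high cells. Zap70 reached 100 TPM in 5 of 9 Cd3g-high cells (0 to 1465, median 495 TPM) and in 2 of 10 Cd3g-undetected cells (0 to 945, median 1.84 TPM), a difference of 3.11. Of the cells between, 9 of 16 were at 100 TPM, about the share of the Cd3g-high cells. Lat reached 100 TPM in 7 of 9 Cd3g-high cells (0 to 2941, median 412 TPM) and in 3 of 10 Cd3g-undetected cells (0 to 1303, median 10.7 TPM), a difference of 2.51. Txk, a Tec family kinase, did so in 4 of 9 and 1 of 10 cells, with medians of 21.7 and 3.83 TPM and a difference of 3.21. In each case the ranges overlapped and the split lay in how many cells were at a high level, since detection at 1 TPM was 8 of 9 and 8 of 10 for Zap70. Zap70 and Lat were both at 100 TPM in 3 of 9 Cd3g-high cells and 1 of 10 Cd3g-undetected cells, and in 5 of the 16 cells between, about the share of the Cd3g-high cells.

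Of the 31 symbols listed as signalling partners, the table held 29 and 13 passed the filter, of which 3 were higher and 2 lower by the size rule, beside 5.45% higher and 13.5% lower over all genes. The median was -0.30 beside -0.32 over all genes, and it moved in both directions with the settings. Over fewer members it was 1.70 (9 members at a detection limit of 10 TPM), 2.51 (5 at 100 TPM) and 2.15 (6 in at least 10 cells). All genes lay at -0.30, -0.24 and -0.34 there. By the log2 of mean TPM, over the same 13 members, it was 0.99 beside -0.03. In other settings it lay below all genes. It was -0.83 beside -0.54 with a pseudocount of 0.1. Without the cells that held Cd3d or Cd3e it was -0.56 beside -0.33. Vav1, a guanine nucleotide exchange factor, and Ptpn22, a phosphatase that dampens receptor signalling, were the 2 lower ones. Vav1 was detected in 2 of 9 Cd3g-high cells and 7 of 10 Cd3g-undetected cells (-2.30), and Ptpn22 in 2 of 9 and 5 of 10 (-2.04). Lck, the kinase that starts the cascade, was detected in 3 of 9 and 6 of 10 cells and at 100 TPM in 2 and 3, with a difference of -0.58. Lcp2, the SLP-76 adaptor, was at -1.63 and Csk, an inhibitor of Lck, at 1.69, both under the size rule. Syk, Plcg1, Prkcq, Trat1 and Themis were detected in none of the 19.

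Other adaptor genes and an Fc receptor gene stood beside them. Of those described first below, Fcer1g is an ITAM adaptor. Fcer1g, the common Fc receptor gamma chain, was at 1861 to 8678 TPM in Cd3g-high cells (median 3543) and 112 to 4448 TPM in Cd3g-undetected cells (median 2448), and was over 100 TPM in all 19. Fcgr3, a low-affinity Fc receptor for IgG that pairs with it, was detected in 6 of 9 Cd3g-high cells and 1 of 10 Cd3g-undetected cells, at up to 970 TPM and 3.99 TPM, a difference of 3.58. It reached 100 TPM in 3 of 9, 0 of 10 and, among the cells between, 0 of 16 cells. Tyrobp, an ITAM adaptor like Fcer1g, was detected in 2 of 9 and 0 of 10 cells. Of the ITAM chains Cd79a and Cd79b, Cd79a was detected in 1 of 9 and 0 of 10 cells. Cd79b went the other way, with 0 of 9 and 2 of 10 cells (-1.06). Hcst, the DAP10 adaptor, was at 1.85, under the size rule. Clnk, an adaptor of the SLP-76 family, was detected in 8 of 9 Cd3g-high cells (up to 1772 TPM) and 2 of 10 Cd3g-undetected cells (up to 69.2 TPM).

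**Figure D3:**
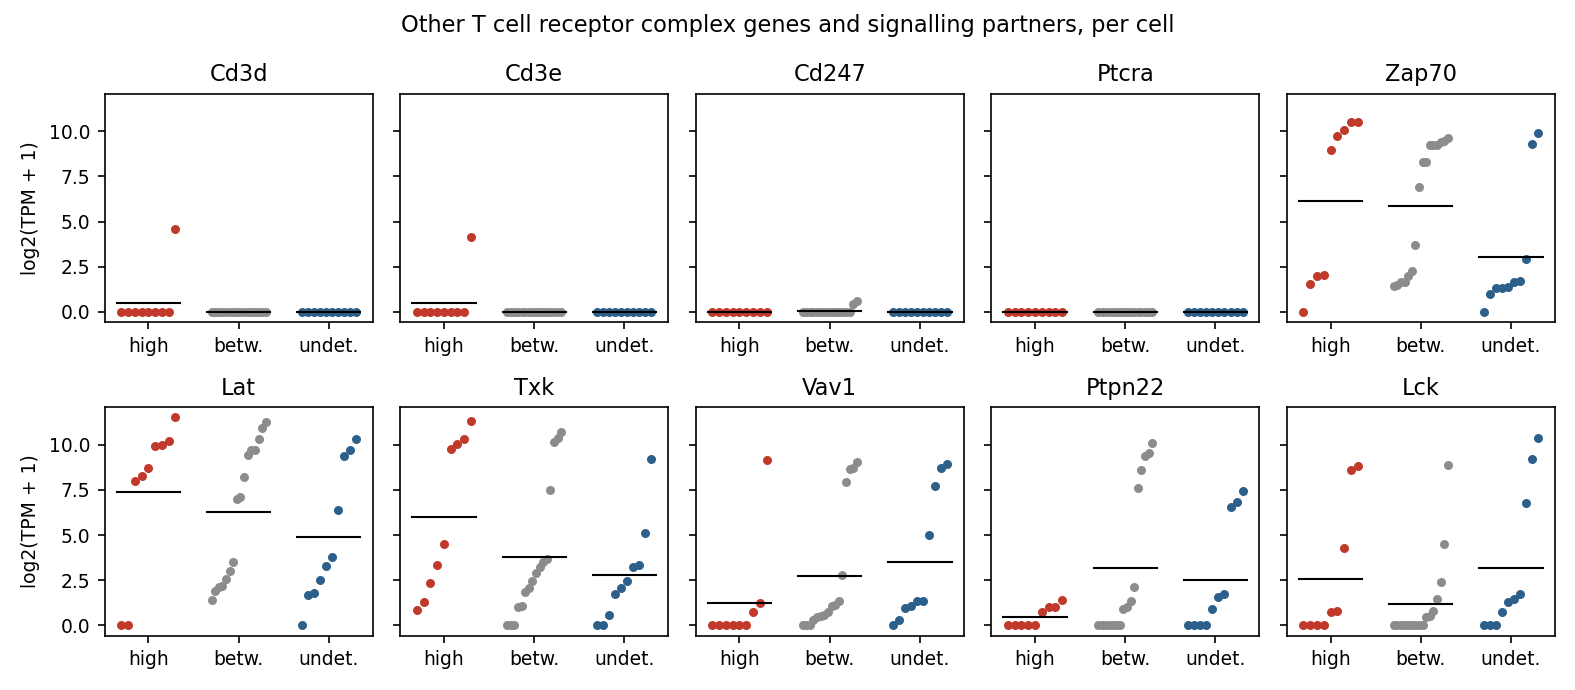
Each point is 1 cell and each panel 1 gene, as log2(TPM + 1), for Cd3g-high (9), between (16) and Cd3g-undetected cells (10), with lines at means. Cd3d and Cd3e each show 1 cell above 0, both Cd3g-high, while Zap70, Lat and Txk are spread over low and high levels in all 3 groups.

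The largest differences were in genes outside the receptor pathway. Ncoa7, a gene of the ILC3 list that takes part in the oxidative stress response, was the highest. It lay at 345 to 2082 TPM in Cd3g-high cells, with a median of 1290, and at 1.39 to 1948 TPM in Cd3g-undetected cells, with a median of 8.13. All 9 Cd3g-high cells and 4 of 10 Cd3g-undetected cells were at 100 TPM, and the difference was 4.89. Car2, carbonic anhydrase 2, was at 866 to 6254 TPM in Cd3g-high cells (median 3333) and at 5.71 to 2326 TPM in Cd3g-undetected cells (median 193), a difference of 4.51. The lowest Cd3g-high cell thus lay inside the range of the other group for both genes. Computed as the log2 of mean TPM, in which single high cells weigh more, the difference of Ncoa7 was 1.43, under the size rule. Pin4 (4.84), a peptidyl-prolyl isomerase, and Ppm1b (4.80), a phosphatase, reached 100 TPM in 7 of 9 Cd3g-high and 2 of 10 Cd3g-undetected cells each. Tspan32, a tetraspanin of blood cells, did so in 6 and 2 cells (4.79). Csnk1a1, the casein kinase 1 alpha gene, did so in 7 and 2 cells (4.47), and Sec22b, a vesicle trafficking gene, in 6 and 0 (4.43). Basp1 (4.44), Gimap3 (4.26), a GTPase of lymphocyte survival, Zfp259 (4.24), Mrps18a (4.24) and Fam189b (4.23) followed.

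Among genes lower in Cd3g-high cells, Gtf3a, the factor that starts transcription of 5S RNA, was first. It was at 0 to 141 TPM in Cd3g-high cells (median 0) and at 4.02 to 1725 TPM in Cd3g-undetected cells (median 440), reached 100 TPM in 1 of 9 and 7 of 10 cells, and differed by -6.36. Psmc6, a proteasome subunit, reached 100 TPM in 0 of 9 and 6 of 10 cells (-5.44). Nupr1, a stress response gene, did so in 1 and 6 cells (-4.97), Ndufb6, a subunit of respiratory complex I, in 1 and 8 (-4.93), and Eif3b, a translation initiation factor, in 0 and 6 (-4.90). Mettl10 (-5.35), Rnf181 (-4.81), Timm21 (-4.74), Snx17 (-4.71), N6amt2 (-4.60), Dbnl (-4.59) and Cript (-4.54) followed. Of the genes set aside, the ribosomal protein gene Rpl12 was at -5.06. These 24 genes were picked as the largest differences among the 4203 genes once ribosomal protein, mitochondrial and predicted genes were set aside, so their size is a description, and the ranges of both groups overlapped in 24 of 24.

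**Figure D4:**
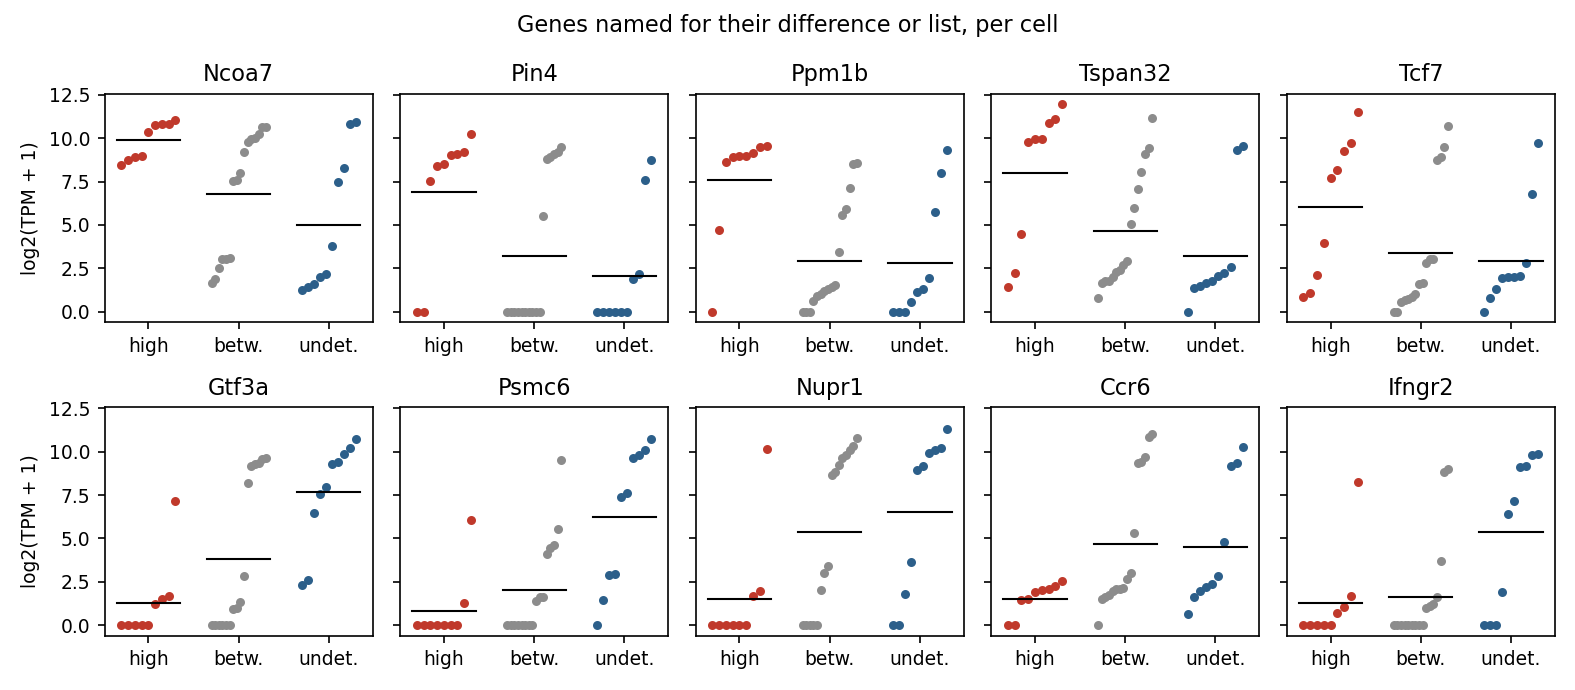
Each point is 1 cell and each panel 1 gene, as log2(TPM + 1), for Cd3g-high (9), between (16) and Cd3g-undetected cells (10), with lines at means. Ncoa7 is over 100 TPM in all 9 Cd3g-high cells and in 10 of the 16 cells between, and the other genes hold both low and high cells in at least 1 group.

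ILC identity genes were held by both groups. Id2, the repressor that opposes E proteins, lay at 11.3 ± 0.73 and 11.3 ± 1.95 on the log2 scale. Ltb, a lymphotoxin subunit, had medians of 7950 and 2637 TPM and a difference of 1.64, under the size rule. Of 17 ILC3 genes that passed the filter, 1 was higher (Ncoa7) and 3 lower, close to the 5.45% and 13.5% over all genes. The lower ones were Ccr6, a chemokine receptor of lymphoid tissue inducer cells (-2.98), the tetraspanin gene Cd81 (-2.97) and Batf3 (-2.03). Ccr6 reached 100 TPM in 0 of 9 Cd3g-high and 3 of 10 Cd3g-undetected cells. Kit (-1.62) and Il23r (-1.55) were under the size rule. The ILC3 list median was -0.85, beside -0.32 over all genes.

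Runx1 and Hoxa9, transcription factors that promote blood formation in stem cell cultures, were detected in all 19 cells. Values by gene symbol do not tell reads of any introduced copy from those of the cells' own genes. Runx1 lay at 52.9 to 1612 TPM (median 380) in Cd3g-high cells and 3.29 to 1456 TPM (median 233) in Cd3g-undetected cells, a difference of 2.29. Hoxa9 had medians of 549 and 322 TPM and a difference of 0.94. Myd88, the adaptor of Toll-like receptors, reached 100 TPM in 5 of 9 and 2 of 10 cells (2.09), and its kinase partner Irak2 in 3 and 1 (2.78). These were the only 2 of 8 listed IL1 and Toll-like receptor adaptors that passed the filter. Irak1 (-0.33), Irak3 (-1.02), Irak4 (-0.88) and Map3k7 (-0.54), which did not pass it, lay below 0. Zfp36, which destabilises cytokine mRNA, reached 100 TPM in 3 and 0 cells (2.91). Of 11 immediate early genes that passed the filter, Zfp36 alone was higher and Nfkbia (-2.02) alone lower by the size rule. The shares over all genes were 5.45% higher and 13.5% lower. The receptor chains for interferon gamma were lower: Ifngr1 reached 100 TPM in 3 of 9 Cd3g-high and 9 of 10 Cd3g-undetected cells (-3.90), and Ifngr2 in 1 and 5 (-4.05). By the log2 of mean TPM, Ifngr1 was at -0.94, under the size rule. Of 10 class I genes that passed the filter, 3 were lower (H2-Q7, H2-Q6 and Tap2) and 0 higher by the size rule, beside 13.5% and 5.45% over all genes. B2m, the shared light chain, was at -0.75 and H2-T23 at 1.04, both under the size rule.

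Some genes of gut epithelium were lower in Cd3g-high cells. Of 18 listed, 14 passed the filter, and by the size rule 5 were lower and 0 higher, beside 13.5% lower and 5.45% higher over all genes. Among the 5 were Fabp1 (-2.71), Krt8 (-2.45) and Lgals4 (-2.50), while Fabp6 was at 0.85, under the size rule. The median was -1.76 beside -0.32 over all genes. Their summed level was 9.60 to 17905 TPM in Cd3g-high cells (median 27.1) and 21.6 to 21255 TPM in Cd3g-undetected cells (median 815), so the ranges overlapped. Epcam was detected in 4 of 9 and 6 of 10 cells, and Muc2 was listed at 0 in all 19. Krt8 was highest in Cd3g-undetected cells 42 (3682 TPM) and 1 (3171 TPM), followed by Cd3g-high cell 21 (772 TPM). Ptprc, the gene of the CD45 used in the gate, was detected in 5 of 9 and 4 of 10 cells. The source of the epithelial RNA and its part in the differences above were not tested. Of 3 erythroid genes that passed the filter, the haemoglobin gene Hbb-b2 was lower (-2.22) and 0 were higher, beside the same shares over all genes. Hbb-b1 (-1.93) and Hba-a2 (-1.07) were under the size rule. Hbb-b2 was highest in Cd3g-undetected cell 1 (35417 TPM) and Cd3g-high cell 21 (11249 TPM).

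Cells with the same Cd3g class were hardly more alike than cells of unlike class. Over 3531 genes with Cd3g left out, the median correlation was 0.28 within Cd3g-high cells, 0.27 within Cd3g-undetected cells and 0.27 between them, and these pairs share cells and depth.

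The same split was laid over cells that the choice of members did not use. In R9-ILCs without a title ending (6 Cd3g-high, at up to 201 TPM, against 23 undetected), 49.3% of 3166 genes considered in both sets had the same sign as above, and 51.0% had it relative to each set's median. WT cells, in which fewer than 5 cells reached 100 TPM, were split at 1 TPM (11 against 11 after joining columns that look like 1 cell), and 50.5% of 3190 genes had the same sign, or 52.0% relative to the medians. Of the 24 largest genes, those higher had the same sign in 10 of 11 R9 and 8 of 11 WT comparisons and those lower in 3 of 10 and 4 of 11, with medians over all genes of 0.53 in R9 and 0.33 in WT. Relative to those medians, the counts were 8 of 11 and 8 of 11 for the higher genes, and 4 of 10 and 5 of 11 for the lower genes. Car2 was at 1.71 in R9 and 1.80 in WT cells, and Ncoa7 at 0.98 and 1.10. Gtf3a was at 1.87 and -1.30, turning sign in R9 cells without an ending. Rnf181 (3.95) and Ndufb6 (3.71) were higher there, while both were lower in cells of title ending 1.

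For the receptor pathway, Cd3d was detected in 0 of 6 Cd3g-high and 0 of 23 Cd3g-undetected R9-ILCs without an ending, and Cd3e in 0 of 6 and 1 of 23. Zap70 was at -1.73 there, with 0 of 6 and 8 of 23 cells at 100 TPM, and at 0.99 in WT cells. Lat was at 0.23 and 3.20, Txk at 1.65 and 2.12 and Tcf7 at 1.62 and 0.01. Fcgr3 was at 4.32 in WT cells, detected in 8 of 11 cells with Cd3g and 1 of 11 without, and in R9-ILCs without an ending it was detected in 1 of 6 and 2 of 23 cells.

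**Figure D5:**
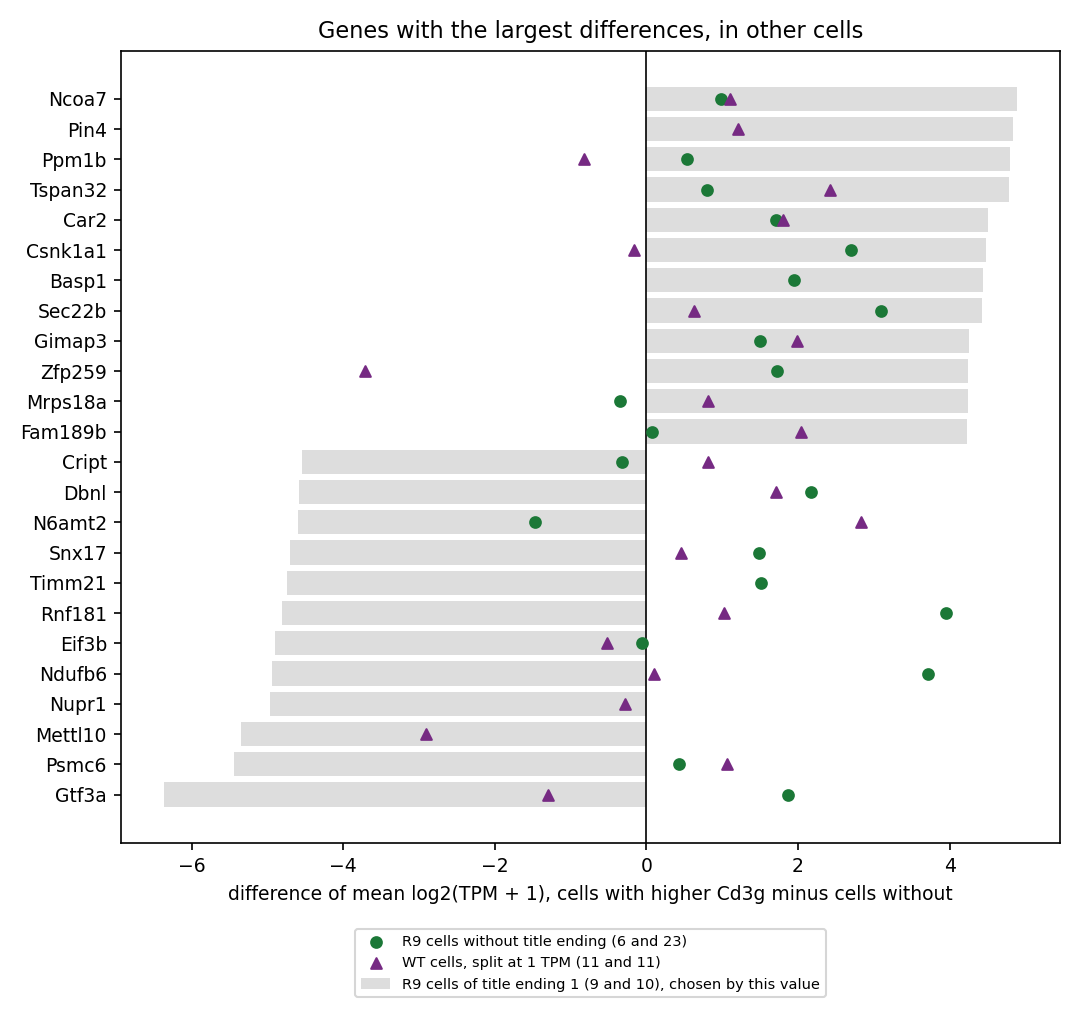
Bars give the difference of mean log2(TPM + 1), Cd3g-high minus Cd3g-undetected, for the 24 genes with the largest differences in R9 cells of title ending 1, by which they were chosen. Points give the same difference in R9 cells without a title ending and in WT cells where the gene passed the filter; of the higher genes 10 of 11 in R9 and 8 of 11 in WT lie above 0, and of the lower genes only 3 of 10 and 4 of 11 lie below 0.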

How the data were processed

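Single intestinal ILCs were profiled by full-length RNA sequencing. The deposited values are TPM that the authors made in 2 tables, each scaled separately. Per the submitters' processing notes the genome build was mm10, and StringTie 1.3.4, HISAT2 2.1.0, bcl2fastq and SAMtools 0.1.19 were run. Per the labels' protocols, the Discover-sc WTA Kit V2 gave cDNA and a TruePrep kit gave libraries. The tables hold 23420 gene symbols, and 1 column was not used since its name did not match 1 title alone.

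Means of log2(TPM + 1) and shares of cells at 1 TPM were compared within 1 table, for genes reaching 1 TPM in at least 5 of the 19 cells. Intervals are exact Clopper-Pearson at 95%. WT columns correlating above 0.8 were averaged as 1 cell, which assumes that they are. The code was tested on simulated data. Members and gene lists were chosen with earlier results of these data known. Named genes were the 12 largest differences of level and 6 of detection in each direction (without predicted, mitochondrial and ribosomal genes), all receptor complex genes, the 4 most abundant of each list and list members meeting the size rule, and others (such as Lck, Cd4, Csk, Kit and Atp5l) were picked after their values were seen. Scripts ran under scipy 1.17.1, pandas 2.3.3, matplotlib 3.10.9, numpy 2.4.6 and Python 3.11.15. Some genes of the lists are not reported here.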

Additional observations from a re-analysis of the deposited data

Results flagged for a closer look

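Of 60 sets of values (30 quantities in 2 groups), 16 held a cell whose gap to the next exceeded the 95% critical value of Dixon. That limit assumes normal values, while many of these sets hold zeros, and sets without any spread could not be flagged. The count of 16 is therefore a description, with no count by chance to set it against. These single cells stand apart.

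Cell 21 of the Cd3g-high group had 6042 genes at 1 TPM or more and 4.01% of its TPM in the top gene. Cell 1 of the Cd3g-undetected group had 19.3% in the top gene, and in both cells this gene was the haemoglobin gene Hba-a1. Cd3d stood at 4.59 on the log2(TPM + 1) scale in Cd3g-high cell 25 and Cd3e at 4.14 in Cd3g-high cell 8, with the other cells at 0. Gtf3a, Psmc6 and Eif3b stood apart in Cd3g-high cell 21, at 7.15, 6.07 and 5.63. Dbnl was at 6.40 in Cd3g-high cell 25, N6amt2 at 10.1 in cell 8, Nupr1 at 10.2 in cell 19 and Csnk1a1 at 0 in cell 28. In Cd3g-undetected cells, Basp1 was at 8.56 and Fam189b at 9.46 in cell 7, Gimap3 at 9.57 in cell 5 and Sec22b at 6.47 in cell 1. Leaving out the highest cell of each gene in each group left 67 of 69 named genes at the size of 2.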

How the results depend on the processing

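All 69 named genes that met the size rule kept their sign under the 17 alternatives, and 40 to 69 still met the size of 2. These genes were chosen by that difference in the same cells, so kept signs are a description. Alternatives that changed only the detection limit, the filter or the size rule could not change a level difference. The undetected group at exactly 0 held the same 10 cells. The alternatives at 100 TPM and without the 2 cells that held Cd3d or Cd3e were chosen after seeing the data. The counts of 229 higher and 566 lower genes moved more. With the cells between joined to the undetected group, 228 genes were lower in level and 281 in detection. A pseudocount of 0.1 gave 877 lower, and one of 10 gave 90 higher and 141 lower. A detection limit of 10 TPM gave 144 higher and 350 lower, with 251 lower in detection. A limit of 100 TPM gave 113 higher and 221 lower, also when applied in the size rule alone, and 138 lower in detection. A high group from 10 TPM gave 332 genes higher in detection. Cells in the shared range of gene number gave 958 lower in detection. Genes in at least 10 cells gave 346 lower in level, and 39 higher and 269 lower in detection. Lists with a median above that of all genes numbered 11, against 5 with no filter and 6 at 100 TPM. With no filter the median of the IL1 and TLR adaptor list turned to -0.17. By the log2 of mean TPM, Cd3d was at 1.84 and Cd3e at 1.51, each from 1 cell. The cause of these shifts was not tested beyond the change in the cells or genes counted. No paired analysis was possible because each sample is 1 cell and no test was made. Depth limits are unknown with TPM.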
